A study of Homo sapiens with 12 samples.

Results

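Imprinted genes are transcribed mainly from the chromosome inherited from 1 parent. The 10 genes PLAGL1, PEG10, MEST, PEG3, SGCE, H19, IGF2, CDKN1C, GRB10 and NDN were taken by name, with every probe set that the platform annotation gives to that gene alone. The genes were chosen with earlier results of these data known. Of these 10 genes, 8 were measured by 19 probe sets, among 11963 genes measured in all. No probe set used here named H19 or IGF2 alone, so both are without values. The 8 measured genes had 3 probe sets for PLAGL1, 2 for PEG10, 1 for MEST, 2 for PEG3, 1 for SGCE, 5 for CDKN1C, 4 for GRB10 and 1 for NDN. Where a gene had several, its brightest probe set (the highest mean over all arrays) stood for the gene.

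The parental bias of these genes is carried by DNA methylation laid down in the egg or the sperm at imprinting control regions, and is kept through cell division. PLAGL1, PEG10, MEST, PEG3, SGCE, IGF2 and NDN are known for expression from the paternal chromosome, and H19 and CDKN1C from the maternal one. In the mouse, GRB10 is expressed from the maternal chromosome in most tissues and from the paternal one in neurons. LSD2, the product of KDM1B, removes methyl groups from lysine 4 of histone H3, and in the mouse egg it is needed for the methylation of several imprinting control regions. Arrays of this kind measure the summed RNA of both parental copies, so the parental origin of the RNA was not measured here.

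MDA-MB-231, the line named in the labels, is an established line from a human breast cancer that lacks hormone receptors and has a mesenchymal character. All 12 arrays were of cells kept in 800 µg/ml G418, which kills cells that did not take up a plasmid, after stable transfection with 1 of 4 constructs. These were a scramble shRNA, an LSD2 shRNA, a vector with eGFP/Flag and a vector with LSD2/eGFP/Flag, on 3 arrays each that the labels call biological replicates. Every group therefore carries a construct and drug selection. The labels do not say whether a stable line was 1 clone or a pool, or whether the replicates came from separate transfections. The p-values therefore measure only the spread between these arrays, which may be technical, and group and line cannot be told apart. No probe set used here named KDM1B (0 probe sets). Lowered or raised LSD2 was thus not checked from these data.

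Values are RMA log2 values as deposited, and a difference of 1 on this scale is a doubling of signal. Array medians point to separate normalization of the shRNA set and the vector set (array medians of 6.65 to 6.71 against 7.03 to 7.18), so groups were compared only within a set. The difference between the vector effect and the shRNA effect, each taken within its own set, is the only test that uses both. Levels set side by side across the sets are a description. The arrays labelled LSD2/eGFP/Flag stood apart: across genes, which are not independent replicates, their correlation with the eGFP/Flag arrays was 0.904 to 0.908, against 0.991 to 0.994 between scramble and LSD2 shRNA arrays. They also went against the label MDA-MB-231. The mean of 6 markers of that line (VIM, CD44, AXL, CAV1, MSN, EGFR) was 11.78 to 11.85 on the scramble arrays, 11.79 to 11.80 on the LSD2 shRNA arrays, 12.77 to 12.81 on the eGFP/Flag arrays and 7.64 to 7.82 on the arrays labelled LSD2/eGFP/Flag, where 6 of 6 were lower. CD44 stood at 12.41 and 3.99 in the vector pair (a difference of -3.84 as the mean of its probe sets) and VIM at 14.18 and 12.73. The mean of all probe sets also gave smaller differences for AXL (-4.96, against -7.45 by the brightest) and EGFR (-1.31, against -4.56). The mean of 6 markers that MDA-MB-231 lacks (ESR1, PGR, ERBB2, CDH1, CLDN3, CLDN4) was 5.64 to 6.25 on all arrays. Not all of them were low: ERBB2 stood at 8.13 to 8.92 as a group mean, and CLDN4 at 8.07, 7.64, 8.33 and 5.07 in the order of the groups above, called lower in both comparisons. The mean of 6 neuronal genes (NEFM, NEFL, STMN2, DCX, GAP43, TUBB3) was 5.82 to 6.08 on the other arrays and 7.53 to 7.70 on these, with 3 higher, 1 lower and 2 not called (2 higher after a shift to equal medians). The call of DCX (0.40) was also lost without eGFP/Flag replicate 1 or 3 or LSD2/eGFP/Flag replicate 1. As the mean of its probe sets GAP43 was called higher (0.69, limma adjusted p = 2.5e-04, against -0.01 by the brightest), and NEFL stood at 5.72 instead of 3.25. The vector comparison below is thus between arrays that also differ in these markers, and their part in it was not tested. Without the 3 arrays labelled LSD2/eGFP/Flag that comparison cannot be made. In RNA from whole cultures, fewer cells that express a gene and less RNA per cell cannot be told apart.

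The promoter windows of the members that moved in opposite directions, or that stayed low, are shown to let the start sites be compared. Of the 10 members, 5 matched the RefSeq promoter table of build GRCh38.p14 (PLAGL1, MEST, GRB10, H19 and NDN), with 17 windows of 300 bases, each running from 250 bases before to 50 after a start site. Capitals mark TGCCGC, or its reverse complement GCGGCA, the letters recognised in methylated form by the zinc finger protein ZFP57, which protects imprints in the embryo. Both strands were searched and matches may overlap. Among all 35116 windows listed there, 16.7% held the motif, as did 7 of the 17 member windows (1 of 5 for PLAGL1, 4 of 5 for MEST, 1 of 5 for GRB10, 0 of 1 for H19 and 1 of 1 for NDN). Windows of MEST overlap in part and hold some of the same matches, so these counts are not counts of separate sites. A match is a description of these letters only. The first window below, at the CpG-rich internal start of PLAGL1, is also listed for the noncoding RNA HYMAI and held 39 CpG dinucleotides, the second, at another start of PLAGL1, held 2, that of MEST held 25 and that of NDN held 35, against a median of 14 over all windows.
PLAGL1, internal CpG-rich start, minus strand, chr6:144008210-144008509: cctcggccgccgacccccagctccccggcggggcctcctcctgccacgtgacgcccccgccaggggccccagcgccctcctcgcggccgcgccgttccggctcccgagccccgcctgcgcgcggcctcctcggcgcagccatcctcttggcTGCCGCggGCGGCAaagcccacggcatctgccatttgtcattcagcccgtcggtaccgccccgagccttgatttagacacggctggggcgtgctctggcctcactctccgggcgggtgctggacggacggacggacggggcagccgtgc
PLAGL1, CpG-poor start, minus strand, chr6:143961363-143961662: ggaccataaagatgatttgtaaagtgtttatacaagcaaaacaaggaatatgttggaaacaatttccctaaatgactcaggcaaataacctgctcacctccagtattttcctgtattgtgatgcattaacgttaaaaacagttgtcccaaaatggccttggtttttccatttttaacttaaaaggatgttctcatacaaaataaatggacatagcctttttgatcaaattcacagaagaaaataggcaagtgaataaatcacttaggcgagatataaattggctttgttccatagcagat
MEST, CpG-rich start, plus strand, chr7:130491835-130492134: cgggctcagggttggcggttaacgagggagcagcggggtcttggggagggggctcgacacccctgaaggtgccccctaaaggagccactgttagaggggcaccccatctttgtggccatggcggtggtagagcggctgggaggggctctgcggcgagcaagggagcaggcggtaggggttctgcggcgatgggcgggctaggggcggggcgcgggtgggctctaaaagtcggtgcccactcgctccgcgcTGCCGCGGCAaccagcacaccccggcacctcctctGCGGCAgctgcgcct
NDN, minus strand, chr15:23687256-23687555: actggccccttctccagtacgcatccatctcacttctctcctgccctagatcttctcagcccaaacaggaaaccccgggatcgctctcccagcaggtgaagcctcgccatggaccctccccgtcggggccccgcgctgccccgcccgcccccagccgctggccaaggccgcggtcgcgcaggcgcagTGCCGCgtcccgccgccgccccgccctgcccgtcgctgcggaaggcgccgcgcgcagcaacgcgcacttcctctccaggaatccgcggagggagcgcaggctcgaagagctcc
The arrays do not tell which start site a transcript used. MEST also holds a microRNA gene, MIR335, in its body on the same strand, and both mature forms are shown because a fall of the MEST transcript includes their host. Capitals mark the seed, bases 2 to 8. The mature microRNAs were not measured by these arrays.
hsa-miR-335-5p, chr7:130496126-130496148: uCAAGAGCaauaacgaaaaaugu
hsa-miR-335-3p, chr7:130496162-130496183: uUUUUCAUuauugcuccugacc

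With the LSD2 shRNA, 1 of the 8 measured members changed. CDKN1C, the cyclin-dependent kinase inhibitor p57, fell by 0.78 ± 0.17 log2 units (SE), against 5.53% of all genes called lower, and the other 7 were not called (limma, Benjamini-Hochberg adjustment over 11963 genes, adjusted p under 0.05). In the arrays labelled LSD2/eGFP/Flag, 6 of 8 changed: PLAGL1 and CDKN1C rose (30.9% of all genes were called higher), and PEG10, MEST, SGCE and GRB10 fell (26.1% were called lower). The share of all genes called was 10.5% in the shRNA comparison and 57.0% in the vector comparison, so 1 of 8 and 6 of 8 lie near the background. Of the 8 members, 4 were called with a difference of at least 2 log2 units in the vector comparison, against 6.16% of all genes, and CDKN1C lay just under that size. The members were chosen with earlier results of these data known, so that share is no test of imprinted genes. The median difference of the 8 members was -0.01 in the shRNA comparison (-0.01 over all genes) and -0.34 in the vector comparison (0.01 over all genes). A shift of all arrays to equal medians moved the median of all genes in the vector comparison to -0.12 and the split of all calls from 3701 higher and 3123 lower to 2920 higher and 4295 lower. The 6 members called kept their direction under it.

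**Figure D1:**
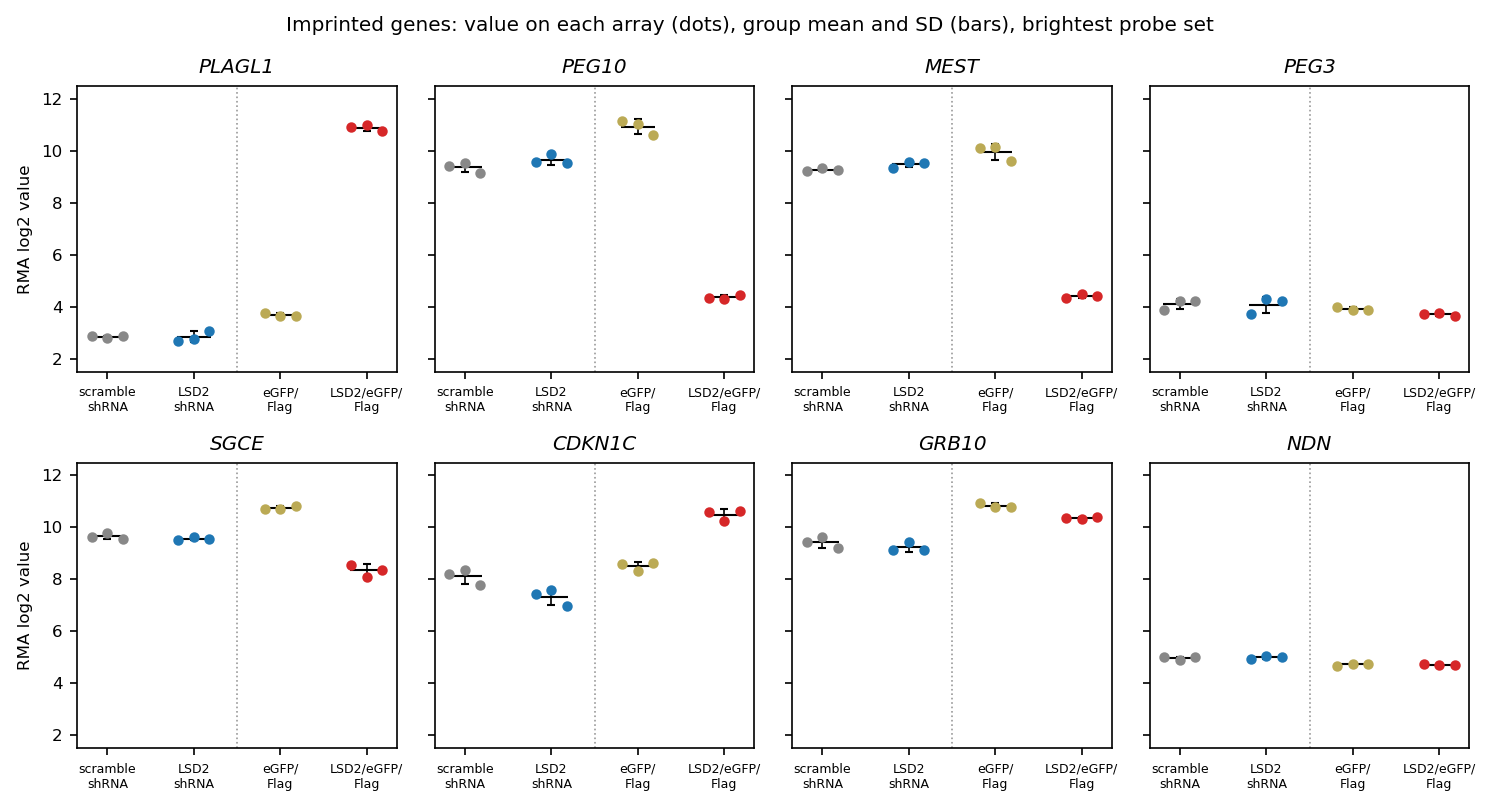
Deposited RMA log2 value (vertical axis) of the brightest probe set of each of the 8 measured imprinted genes on every array (dots) in the 4 groups (horizontal axis), with bars for the group mean and SD (n = 3); the dotted line divides the shRNA set from the vector set, whose levels are not on 1 scale. PLAGL1 lies between 2.70 and 3.76 on 9 arrays and between 10.76 and 10.99 on those labelled LSD2/eGFP/Flag, where PEG10 and MEST lie between 4.29 and 4.50.

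PLAGL1 encodes a zinc finger transcription factor that restrains growth and regulates other imprinted genes. By its brightest probe set it read 2.88, 2.80 and 2.86 on the scramble arrays, 2.70, 2.77 and 3.09 on the LSD2 shRNA arrays, 3.76, 3.63 and 3.64 on the eGFP/Flag arrays, and 10.94, 10.99 and 10.76 on the arrays labelled LSD2/eGFP/Flag. The shRNA groups overlapped, and the last 3 arrays lay far above the other 9. The difference was 0.00 ± 0.10 in the shRNA comparison (95% interval -0.21 to 0.22; limma, adjusted p = 0.993) and 7.22 ± 0.10 in the vector comparison (limma, Benjamini-Hochberg adjusted p = 4.6e-15), a 149-fold higher signal. In size it ranked 14 of 11963 genes, and 3 among the rises.

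The other probe sets of PLAGL1 gave the same picture. Probe set 207002_s_at read 2.62, 2.45 and 2.46 with scramble, 2.38, 2.33 and 2.23 with LSD2 shRNA, 3.37, 3.62 and 3.65 with eGFP/Flag and 10.85, 10.83 and 10.49 with the label LSD2/eGFP/Flag, a vector difference of 7.17 ± 0.11. Probe set 207943_x_at rose by 5.98 ± 0.11 there, from 3.94, 3.53 and 4.09 to 9.83, 9.83 and 9.84. All 3 probe sets lay below the 25th percentile of their array on the 9 arrays of the first 3 groups and on none of the last 3. RMA values carry no detection calls, so the low values have no order among themselves and the fold rests on a floor that RMA sets.

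HYMAI, a noncoding RNA of the PLAGL1 locus whose RefSeq window coincides with the first one shown above, also rose. It read 3.61, 3.29 and 3.51 with scramble, 3.41, 3.36 and 3.51 with LSD2 shRNA, 4.93, 5.33 and 4.36 with eGFP/Flag, and 5.77, 6.30 and 5.93 with the label LSD2/eGFP/Flag. The vector groups did not overlap, and the difference was 1.13 ± 0.20 (limma, adjusted p = 2.1e-04). With scramble, LSD2 shRNA and eGFP/Flag every HYMAI value lay below the 25th percentile of its array (5.38 to 5.68 over the arrays). Those with the label LSD2/eGFP/Flag lay not far above it, so the size of this rise also rests on the RMA floor. HYMAI and transcripts of PLAGL1 overlap, so signal from one cannot be told apart from the other by position alone. PHACTR2, a phosphatase and actin regulator and the nearest measured gene on the other side, fell by 2.17 ± 0.11 (by 1.41 as the mean of its probe sets).

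CDKN1C, which holds cells in G1 by inhibiting cyclin E and CDK2 complexes, was called in both comparisons with opposite signs. Its brightest probe set read 8.20, 8.35 and 7.79 on the scramble arrays and 7.43, 7.58 and 6.99 on the LSD2 shRNA arrays. These groups did not overlap, although the highest LSD2 shRNA array lay close to the lowest scramble array. The difference was -0.78 ± 0.17 (95% interval -1.16 to -0.41; limma, Benjamini-Hochberg adjusted p = 0.0112), rank 70 among the falls. The call was lost without scramble replicate 1 (-0.74, adjusted p = 0.0509 by limma) and without scramble replicate 2 (-0.67, adjusted p = 0.0529 by limma). Over all alternatives the adjusted p of limma ranged from 1.1e-04 to 0.0529, the lowest with a replicate block (-0.78 ± 0.06).

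In the vector pair CDKN1C read 8.61, 8.31 and 8.62 with eGFP/Flag and 10.60, 10.24 and 10.65 with the label LSD2/eGFP/Flag. All of the latter lay above all of the former, by 1.99 ± 0.17 (limma, adjusted p = 2.9e-07), or 3.96-fold. The difference between the vector effect and the shRNA effect was 2.77 ± 0.24 (limma, adjusted p = 5.6e-07). Of all genes, 4.97% were called in opposite directions in the 2 comparisons.

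Of the 5 probe sets of CDKN1C, 4 fell with the LSD2 shRNA, by 0.78, 0.63, 0.63 and 0.77, and all 4 rose in the vector comparison, by 1.99, 2.12, 2.07 and 2.17. The fifth, 219533_at, was low on every array and stood at -0.20 ± 0.11 and 0.31 ± 0.11, the latter called (limma, adjusted p = 0.0325). These 4 were the only ones of the 19 member probe sets called with the LSD2 shRNA, against 8.73% of all probe sets. Leaving out 1 array left between 1 and 4 of them called, with 1 left without LSD2 shRNA replicate 3 or scramble replicate 2, and 2 left without LSD2 shRNA replicate 1 or scramble replicate 1. Between the vector groups 15 of 19 were called, 8 higher and 7 lower, against 54.6% of all probe sets (28.5% higher and 26.1% lower). The call of 219533_at there was lost without eGFP/Flag replicate 1 or 2 or LSD2/eGFP/Flag replicate 2 or 3, with array weights, and after a shift to equal medians.

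**Figure D2:**
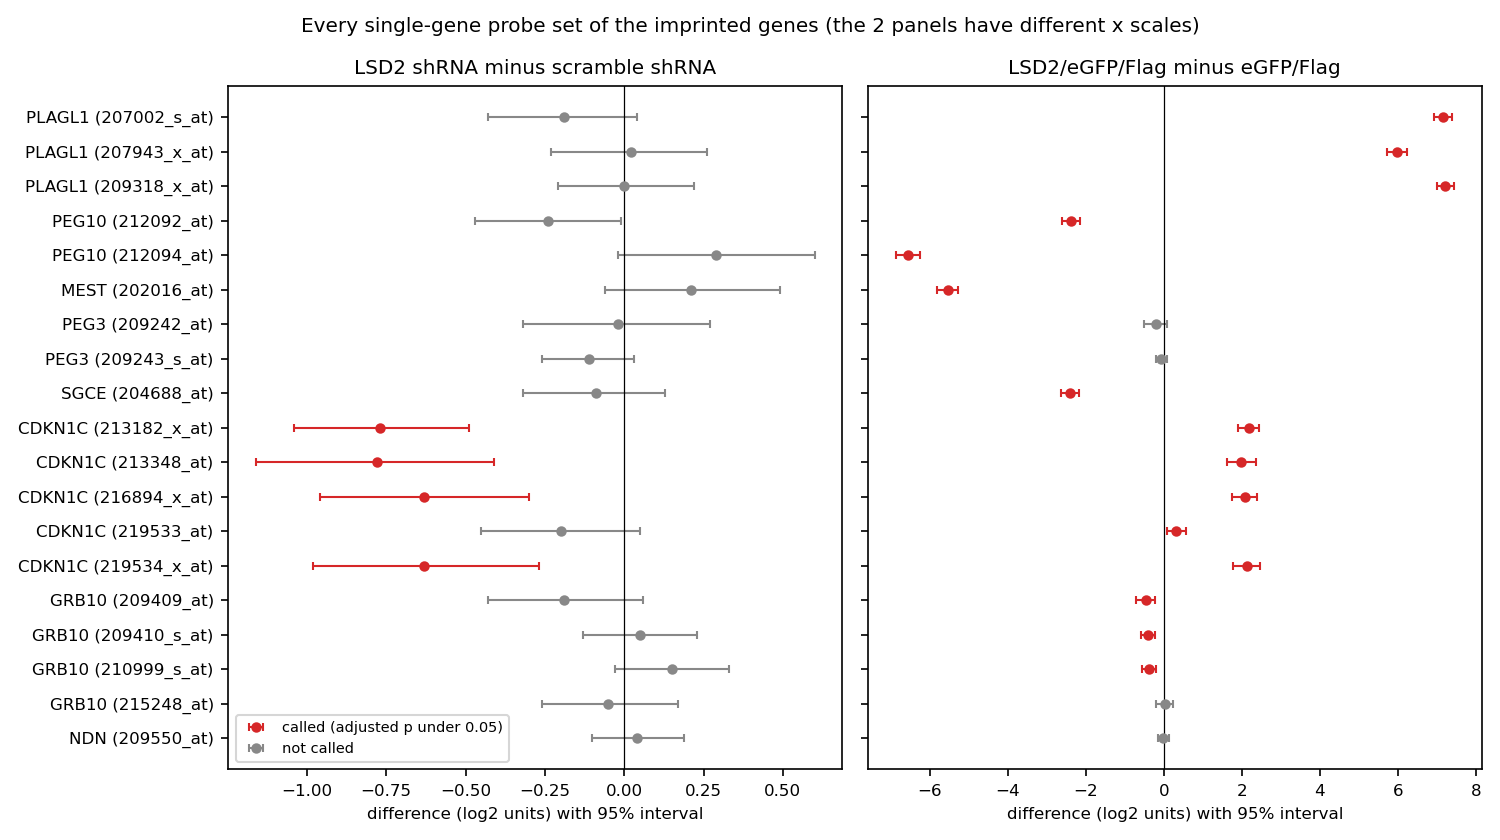
Difference in log2 units (horizontal axis, with 95% interval) for each of the 19 single-gene probe sets of the imprinted genes (vertical axis) in the shRNA comparison (left) and the vector comparison (right, with a wider scale); red marks probe sets called by limma at an adjusted p under 0.05 over all probe sets. Only 4 CDKN1C probe sets are called on the left, and 15 probe sets on the right, with PLAGL1 at 5.98 to 7.22 and PEG10 at -2.38 and -6.57.

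GRB10, an adaptor that binds and restrains the insulin and IGF1 receptors, was high on all arrays and moved little. It read 9.43, 9.65 and 9.20 with scramble, 9.14, 9.44 and 9.14 with LSD2 shRNA, 10.95, 10.78 and 10.79 with eGFP/Flag and 10.36, 10.32 and 10.42 with the label LSD2/eGFP/Flag. The shRNA groups overlapped (-0.19 ± 0.11, 95% interval -0.43 to 0.06; limma, adjusted p = 0.369), while the vector groups did not, and GRB10 fell there by 0.47 ± 0.11 (limma, adjusted p = 0.00243). Probe sets 210999_s_at and 209410_s_at fell by 0.37 ± 0.08 and 0.41 ± 0.08 in the vector comparison, the mean of all 4 probe sets fell by 0.31, and 215248_at, low on every array, stood at 0.03. The difference between the effects was -0.28 ± 0.16 (limma, adjusted p = 0.159). That difference was called after a shift to equal medians (-0.46, limma adjusted p = 0.0137), with the mean of all probe sets (-0.30, adjusted p = 0.0182) and without scramble replicate 2 (-0.39, adjusted p = 0.0419), in a range of 0.0137 to 0.369 over the alternatives.

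PEG10 derives from a retrotransposon and keeps gag-like and pol-like reading frames. Its brightest probe set, 212094_at, read 9.44, 9.52 and 9.16 with scramble and 9.58, 9.90 and 9.52 with LSD2 shRNA, and 11.16, 11.03 and 10.60 with eGFP/Flag against 4.35, 4.29 and 4.45 with the label LSD2/eGFP/Flag. The lowest LSD2 shRNA value was equal to the highest scramble value at 2 decimals, and the vector groups lay far apart. The differences were 0.29 ± 0.14 (95% interval -0.02 to 0.60; limma, adjusted p = 0.25) and -6.57 ± 0.14 (limma, adjusted p = 2.0e-13). The 3 low values lay below the 25th percentile of their array, so the size of the fall rests on the RMA floor.

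The second PEG10 probe set, 212092_at, fell less. It read 8.17, 8.37 and 8.19, then 8.05, 7.77 and 8.18, in the shRNA pair, and 7.77, 7.57 and 7.86, then 5.32, 5.32 and 5.42, in the vector pair. Its differences were -0.24 ± 0.11 (limma, adjusted p = 0.213) and -2.38 ± 0.11, so the probe sets had opposite signs with the LSD2 shRNA, neither called, and the same sign in the vector comparison. The mean of both gave -4.47 there.

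SGCE, the epsilon subunit of the membrane sarcoglycan complex, lies next to PEG10 on chromosome 7. It read 9.63, 9.79 and 9.57 with scramble, 9.50, 9.64 and 9.57 with LSD2 shRNA, 10.71, 10.72 and 10.83 with eGFP/Flag, and 8.56, 8.11 and 8.38 with the label LSD2/eGFP/Flag. It overlapped between the shRNA groups (-0.09 ± 0.10, 95% interval -0.32 to 0.13; limma, adjusted p = 0.683). Between the vector groups it fell by 2.40 ± 0.10 (limma, adjusted p = 2.1e-10), a 5.29-fold lower signal, with no overlap.

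MEST, an enzyme of the alpha/beta hydrolase fold that is abundant in embryonic mesoderm, read 9.24, 9.33 and 9.27 with scramble and 9.35, 9.58 and 9.55 with LSD2 shRNA. In the vector pair it read 10.13, 10.16 and 9.60 with eGFP/Flag and 4.34, 4.50 and 4.41 with the label LSD2/eGFP/Flag. The shRNA groups did not overlap, yet the difference of 0.21 ± 0.13 was not called (95% interval -0.06 to 0.48; limma, adjusted p = 0.355). The groups of 2 of the 8 members did not overlap in that comparison, MEST and CDKN1C, against 28.3% of all genes. MEST fell by 5.55 ± 0.13 in the vector comparison (limma, adjusted p = 2.9e-13), to values below the 25th percentile of all 3 arrays, so that its size too rests on the floor. There, 7 of 8 members did not overlap, against 61.1% of all genes.

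PEG3 and NDN were low throughout. PEG3, a zinc finger protein of placenta and brain, read 3.87, 4.21 and 4.21 with scramble, 3.71, 4.30 and 4.21 with LSD2 shRNA, 4.00, 3.87 and 3.88 with eGFP/Flag, and 3.74, 3.76 and 3.63 with the label LSD2/eGFP/Flag. All 12 values lay below the 25th percentile of their array (5.38 to 5.68 over the arrays), and so did those of its second probe set. Its differences of -0.02 ± 0.14 (95% interval -0.32 to 0.27; limma, adjusted p = 0.954) and -0.20 ± 0.14 (95% interval -0.50 to 0.09; limma, adjusted p = 0.236) were not called. The vector difference was called after a shift to equal medians (-0.34, limma adjusted p = 0.0403), and over the alternatives its adjusted p ranged from 0.0394 to 0.431.

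NDN, a MAGE family protein of neurons that restrains E2F1, read 5.00, 4.89 and 5.00 with scramble, 4.95, 5.07 and 5.00 with LSD2 shRNA, 4.67, 4.75 and 4.76 with eGFP/Flag, and 4.73, 4.69 and 4.69 with the label LSD2/eGFP/Flag. It too lay below the 25th percentile on all 12 arrays. Both pairs of groups overlapped. The differences were 0.04 ± 0.06 (95% interval -0.10 to 0.18; limma, adjusted p = 0.775) and -0.02 ± 0.06 (95% interval -0.16 to 0.12; limma, adjusted p = 0.816).

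The effects of the vector and of the shRNA differed for 5 of the 8 members, against 50.4% of all genes (limma, adjusted p under 0.05 for the difference between the effects). The difference was 7.22 ± 0.14 for PLAGL1, -6.86 ± 0.20 for PEG10, -5.76 ± 0.18 for MEST, -2.31 ± 0.15 for SGCE and 2.77 ± 0.24 for CDKN1C. It was not called for PEG3, GRB10 and NDN.

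The nearest measured gene on each side of a member was taken in the order of the RefSeq gene table, which gave 16 genes besides the members. A gene called beside a member here is the nearest measured one, and unmeasured genes can lie between. There were 3 between GRB10 and COBL, 3 between H19 and MRPL23, 2 between MEST and COPG2IT1 and 0 between NDN and MAGEL2. With the LSD2 shRNA, MRPL23, a mitochondrial ribosomal protein gene beside H19, fell by 0.45 ± 0.09 (limma, adjusted p = 0.00886), 0 rose and 15 were not called, with 1 higher and 2 lower at an unadjusted p under 0.05. The share of all genes called there was 10.5%. Between the vector groups COBL, an actin nucleator beside GRB10 (2.65 ± 0.12), MRPL23 (1.24 ± 0.09) and HYMAI rose. PHACTR2, PPP1R9A (fell by 1.15), CASD1 (fell by 0.79) and COPG2IT1, a noncoding RNA beside MEST (fell by 0.30), were lower, and 9 were not called. The share of all genes called between these groups was 57.0%. Of 10 pairs of a called member and a neighbour that is no member, 4 shared their direction, 2 were opposite and in 4 the neighbour was not called. SGCE and PEG10, members beside each other, both fell. Of the neighbours of CDKN1C, SLC67A1-AS was not called in either comparison. KCNQ1DN, on the other side, stood at -0.09 ± 0.10 and 0.22 ± 0.10, neither called, but its vector difference was called without LSD2/eGFP/Flag replicate 1 (0.31, limma adjusted p = 0.0281), without eGFP/Flag replicate 3 (0.32, adjusted p = 0.0165) and with a replicate block (0.22, adjusted p = 0.015). MAGEL2, beside NDN, stood at -0.24 and 0.13, neither called, and the former was called without LSD2 shRNA replicate 3 (-0.34, limma adjusted p = 0.0173) and with array weights (-0.24, adjusted p = 0.0336).

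On chromosome 7, every measured gene from CALCR to DLX5 around SGCE and PEG10 was read, an interval chosen after its values were seen. In the vector comparison 8 of its 20 genes fell, 6 rose and 6 were not called, or 12 fell and 2 rose after a shift to equal medians. Among all genes, 26.1% were called lower in it and 30.9% higher. TFPI2, a protease inhibitor of the matrix, fell by 6.95 ± 0.10, from 11.90, 12.16 and 12.08 to 5.08, 5.10 and 5.12. GNG11, a G protein gamma subunit, fell by 5.95 ± 0.10, and PON3, a lactonase, fell by 3.48 ± 0.13. TFPI2, GNG11 and PON3 lay below the 25th percentile on every array labelled LSD2/eGFP/Flag, so the sizes of these falls also rest on the RMA floor. BET1, between GNG11 and SGCE, was not called (-0.05), but was called lower after a shift to equal medians (-0.18). PON2, beside PON3, was called higher (0.21). Its call was lost after a shift to equal medians (0.08) and as the mean of its probe sets (0.17). CASD1, SGCE, PEG10 and PPP1R9A, which follow each other among the measured genes, all fell. With the LSD2 shRNA, TFPI2 rose by 0.43 ± 0.10 (limma, adjusted p = 0.0142), 0 fell and 19 were not called, with 2 higher and 0 lower at an unadjusted p under 0.05. The share of all genes called there was 10.5%. The TFPI2 call was lost without scramble replicate 2 (0.32), LSD2 shRNA replicate 1 (0.42) or LSD2 shRNA replicate 3 (0.41).

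On chromosome 11, an interval from MRPL23 to PHLDA2, also chosen after its values were seen, spans the domains of H19, IGF2 and CDKN1C. Of its 16 measured genes, 4 fell with the LSD2 shRNA: SLC67A1, a transporter also known as SLC22A18 (by 0.96 ± 0.26), CDKN1C, MRPL23 and the tetraspanin CD81 (by 0.34 ± 0.07). None rose, with 1 higher and 5 lower at an unadjusted p under 0.05 in limma. Among all genes, 5.53% were called lower there. The calls of SLC67A1 and CDKN1C were both lost without scramble replicate 1 or 2, and that of SLC67A1 also in the other settings given below. CDKN1C, MRPL23 and CD81 (0.41, or 0.27 after a shift to equal medians) rose in the vector comparison, PHLDA2 and TSSC4 fell, and 11 were not called. Among all genes, 30.9% were called higher in it and 26.1% lower. TSSC4 (fell by 0.32) lost its call without LSD2/eGFP/Flag replicate 3 or eGFP/Flag replicate 2. PHLDA2, an imprinted pleckstrin homology gene that restrains placental growth, fell by 3.11 ± 0.17 (limma, adjusted p = 2.0e-09), against the direction of CDKN1C in the same domain. KCNQ1OT1, the long noncoding RNA of that domain, stood at 0.17 and 0.07, neither called. The former was called with array weights (0.23, limma adjusted p = 0.0347). On every array its value lay below the 25th percentile.

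**Figure D3:**
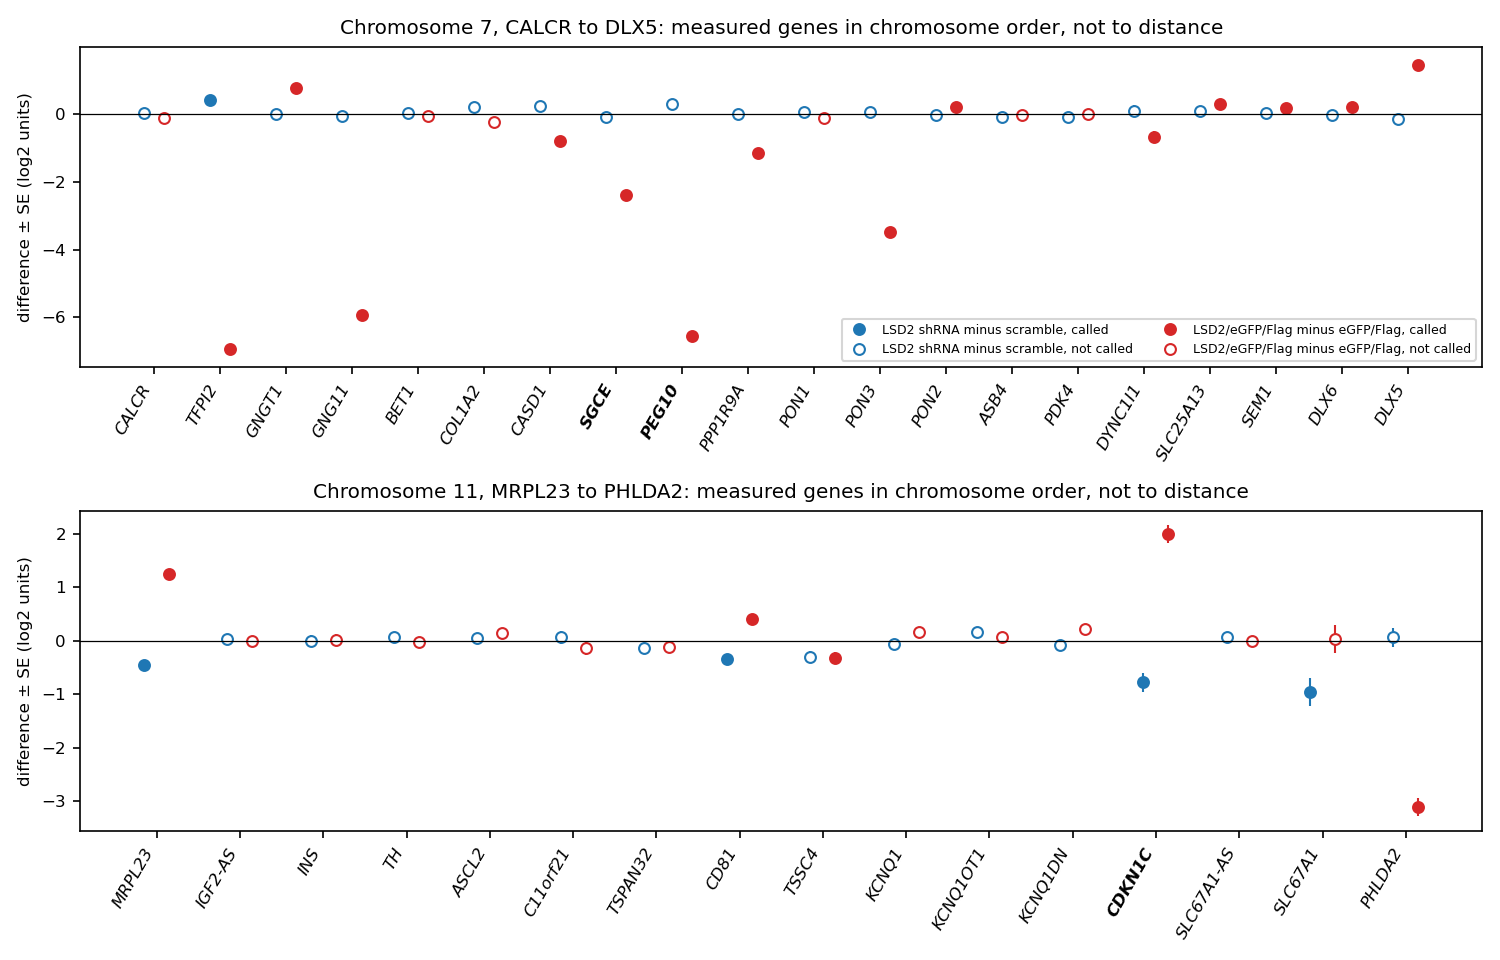
Difference ± SE in log2 units (vertical axis) of each measured gene of the intervals CALCR to DLX5 on chromosome 7 and MRPL23 to PHLDA2 on chromosome 11 in chromosome order, not to distance (horizontal axis); blue is LSD2 shRNA minus scramble, red is LSD2/eGFP/Flag minus eGFP/Flag, filled dots are called by limma and members are in bold. TFPI2 (-6.95), GNG11 (-5.95) and PEG10 (-6.57) lie far below genes between them, such as BET1 (-0.05). The sizes of the falls of TFPI2, GNG11 and PEG10 rest on the RMA floor.

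Of 42 other imprinted genes listed for comparison, 33 were measured. With the LSD2 shRNA 2 rose, 2 fell and 29 were not called (12.1%, against 10.5% of all genes), with a median of -0.03. After cyclic loess 2 rose and 4 fell. The rises were TFPI2 and RB1, the retinoblastoma protein (0.39 ± 0.08, or 0.21 and not called as the mean of its probe sets). The falls were SLC67A1 and BLCAP, a gene that shares its locus with imprinted NNAT (by 0.54 ± 0.06, limma adjusted p = 1.7e-04). SLC67A1 lost its call when scramble replicate 1 (-0.94) or 2 (-0.71) was left out, when LSD2 shRNA replicate 1 (-0.95) or 3 (-0.84) was left out, and in a fit of the compared groups alone.

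In the vector comparison 6 of the 33 rose, 6 fell and 21 were not called (36.4%, against 57.0% of all genes), with a median of 0.03, and after a shift to equal medians 3 rose and 11 fell. By the brightest probe set, the largest rises were those of the homeobox gene DLX5 (1.45 ± 0.11), the retrogene FAM50B (0.88 ± 0.10) and BLCAP (0.77 ± 0.06). That order depends on the probe set for WT1. It rose by 0.31 by its brightest probe set, a call that equal medians removed (0.17). As the mean of its probe sets WT1 rose by 2.65 (limma, adjusted p = 6.8e-12). TFPI2, PHLDA2 and PPP1R9A, which encodes the neuronal actin-binding protein neurabin, had the largest falls. BLCAP, like CDKN1C, was thus called lower with the shRNA and higher in the vector comparison, while TFPI2 and RB1 were called higher and then lower.

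**Figure D4:**
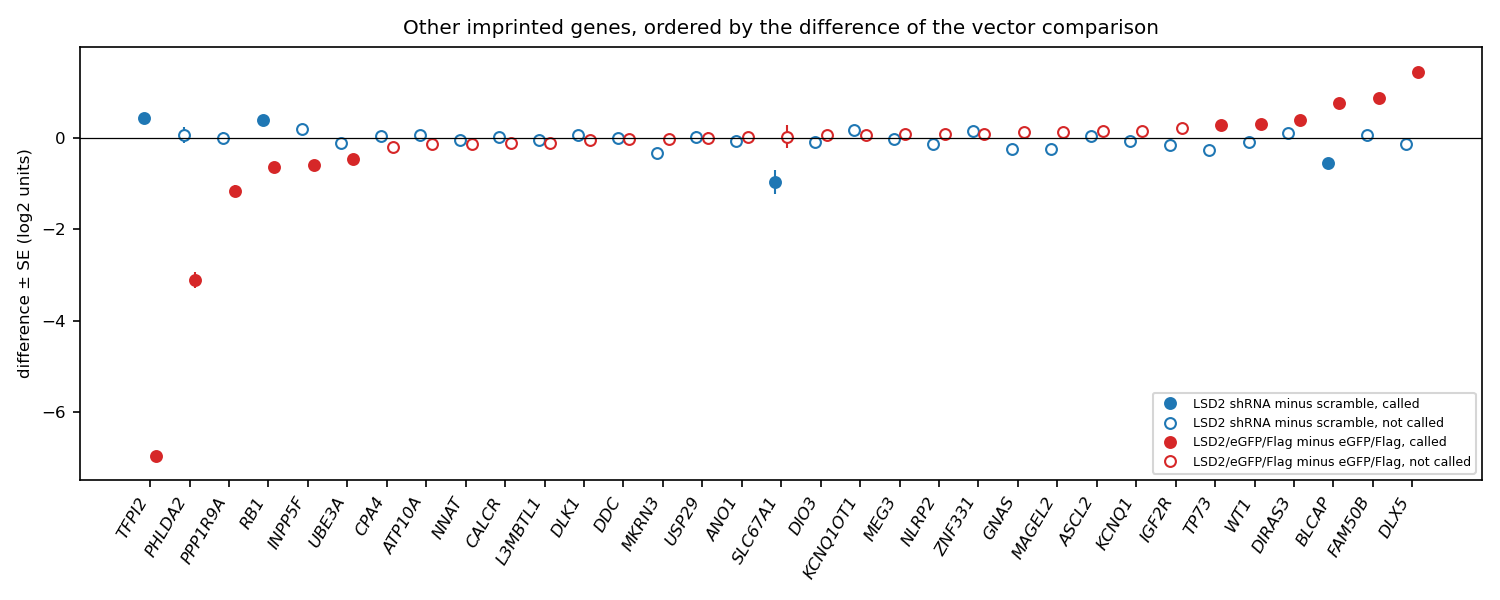
Difference ± SE in log2 units (vertical axis) of the 33 measured imprinted genes outside the 10 members, ordered by the vector comparison (horizontal axis); blue is LSD2 shRNA minus scramble, red is LSD2/eGFP/Flag minus eGFP/Flag, and filled dots are called by limma. Most genes lie near 0 in both, TFPI2 (-6.95) and PHLDA2 (-3.11) fall furthest, and the 6 rises and 6 falls become 3 and 11 after a shift to equal medians. The size of the TFPI2 fall rests on the RMA floor.

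Genes that set or protect imprints were read from a list of 14, of which 8 were measured. None was called with the LSD2 shRNA (limma, 0 also at an unadjusted p under 0.05), against 10.5% of all genes called. Between the vector groups 3 rose, 2 fell and 3 were not called (62.5% called, against 57.0% of all genes), or 2 rose and 3 fell after a shift to equal medians. TET1, which oxidises methylcytosine, rose by 2.74 ± 0.21, the de novo methyltransferase DNMT3B rose by 2.50 ± 0.09 and the insulator protein CTCF by 0.27 ± 0.08. The maintenance methyltransferase DNMT1 fell by 0.76 ± 0.07 and DNMT3A by 0.42 ± 0.15. The CTCF call was lost without LSD2/eGFP/Flag replicate 2 (0.18) and after a shift to equal medians (0.13), and that of DNMT3A without LSD2/eGFP/Flag replicate 2 (-0.35) or eGFP/Flag replicate 3 (-0.19), with array weights (-0.33) and in a fit of the compared groups alone.

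Partners and paralogs of the members, such as cyclins and CDK2 for CDKN1C, INSR for GRB10 and SGCB for SGCE, were read from a list of 14, with 11 measured. With the LSD2 shRNA CDK2 rose by 0.35 ± 0.08 and the sarcoglycan SGCB fell by 0.28 ± 0.08 (18.2% called, against 10.5% of all genes). The call of CDK2 was lost when scramble replicate 1 or 3 was left out, or LSD2 shRNA replicate 1 or 2, and that of SGCB when any array but scramble replicate 3 was left out, and as the mean of all probe sets CDK2 stood at 0.15 and SGCB at -0.16. In the vector comparison 6 rose, 2 fell and 3 were not called (72.7% called, against 57.0% of all genes), or 3 rose and 4 fell after a shift to equal medians. CCNE1, a cyclin that CDKN1C inhibits with CDK2, rose by 1.64 ± 0.08, the insulin receptor INSR by 0.64 ± 0.13 and CDK2 by 0.42 ± 0.08 (0.20 as the mean of its probe sets). SGCB fell by 1.30 ± 0.08, as SGCE did, and the cyclin CCNE2 fell by 0.68 ± 0.20.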

How the data were processed

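Total RNA of 12 cultures was labelled with biotin and read on Affymetrix 3′ expression arrays, 3 in each of 4 groups, which were taken from the sample labels. The authors deposited log2 values of 22277 probe sets, made with RMA per the submitters' processing notes (background correction, quantile normalization and a summary of the probes). The software, its version and the chip definition were not given in the sources used here. RMA compresses differences of dim probe sets and makes no detection calls, and having 3 arrays per group limits the precision.

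Gene names came from the platform annotation (20113 listed, 19064 with 1 gene, 1043 with several, the rest unnamed here) and updated through a RefSeq gene table of GRCh38.p14 (19052 matched, 12 kept their name). Probe sets naming several genes were left out, including 3 that name IGF2 and 1 that names PEG3 with another gene. The brightest single-gene probe set stood for a gene, which gave 11963 genes.

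Differences were fitted with limma 3.58.1 in R 4.3.3 (lmFit, eBayes, all 12 arrays, a mean per group, 8 residual and 4.82 prior degrees of freedom), two-sided, with Benjamini-Hochberg adjustment over all genes or all probe sets, and called under 0.05. Values are differences ± SE. The procedure was tested on simulated data. The 10 members and the lists of genes were chosen with earlier results of these data known. Named were every member and probe set, per list and comparison up to 3 called genes with the largest rises and 3 with the largest falls, and the nearest measured gene on each side of a member. The intervals on chromosomes 7 and 11 were added after their values were seen. Alternatives were a replicate block, the compared groups alone, cyclic loess, equal medians, leaving out the dimmest 25% of genes, averaging a gene's probe sets, an intensity trend, array weights and leaving out each array.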

Additional observations from a re-analysis of the deposited data

How the results depend on the processing

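In the shRNA comparison the count of called members ranged from 0 to 1 when each array was left out, being 0 without scramble replicate 1 or 2. The count of member probe sets ranged from 1 to 4, that of other imprinted genes from 2 (without LSD2 shRNA replicate 1) to 5, and that of all genes from 752 to 1022, against 1260 with every array (752 without scramble replicate 1, 774 without LSD2 shRNA replicate 1 and 832 without scramble replicate 2). With array weights 11 other imprinted genes and 2350 genes in all were called. Differences near 0 changed sign: PLAGL1 stood at -0.05 with array weights, -0.06 as the mean of its probe sets and -0.12 to 0.08 with each array left out, and PEG3 at 0.09 with array weights, 0.02 after a shift to equal medians and -0.14 to 0.16 with each array left out. In the vector comparison the count of called members lay between 5 and 7 and that of other imprinted genes between 9 and 16 over all alternatives. With the dimmest genes left out PLAGL1, PEG3 and NDN gave no value.

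The labels do not say whether arrays of the same number were paired, and the main fit assumed no pairing. Deviations from the group means of same-numbered arrays correlated at 0.0204, 0.508 and 0.446 in the shRNA pair. There, scramble replicate 2 correlated at -0.482 with LSD2 shRNA replicate 3, and scramble replicate 3 at -0.457 with LSD2 shRNA replicate 2. Same-numbered arrays correlated at -0.142, 0.175 and 0.182 in the vector pair. In neither pair did every array correlate best with its own number. With a replicate block, 1 member was called in the shRNA comparison and 7 in the vector comparison, where PEG3 gained a call (-0.20, limma adjusted p = 0.0394). The block gave 6 and 13 other imprinted genes, 4 and 16 member probe sets and 1640 and 6963 genes in all.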
